A study of Mus musculus with 23 samples.

Results

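The Rgs7 locus was taken as the interval chr1:176980000-177450000 of the mouse genome (build mm9, 470 kb), and its members were the listed regions of H3K27ac and H3K4me2 that overlapped it. There were 172 such entries among the 527177 of 16 lists: 89 in full lists and 83 in enhancer lists, which are subsets of the full ones. The lists come from C57BL6J mice at postnatal day 56, for which the labels name no allele and no agent, and cover 4 dissected pieces of cortex. They are the midline anterior cingulate (ACC) and retrosplenial (RSC) areas and, from the entorhinal cortex, its lateral (LEC) and medial (MEC) divisions. The aim stated for the series was to tell such closely related subregions apart by their active enhancers. Each piece is whole tissue with all its cell types, and per the labels every mark was sequenced in 2 libraries of a subregion, with a single library in the case of MEC H3K4me2. The lists hold positions without values per library, so no value here has a replicate error, no test across animals could be made, and the depth behind each list is unknown. In whole tissue, a region carried by few cells and a region weakly marked in many cannot be told apart.

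RGS7 is a regulator of G protein signalling of the R7 family. Proteins of this family speed up the hydrolysis of GTP by G alpha subunits of the Gi/o class and so shorten signalling from their receptors. RGS7 is stable as a complex with the G protein beta subunit Gnb5, is anchored at the membrane by Rgs7bp or Gpr158, and is made in many neurons of the brain. H3K27ac, acetylation of lysine 27 of histone H3, marks active enhancers and promoters. H3K4me2, dimethylation of lysine 4, marks active enhancers and promoters and also inactive ones.

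The interval was selected on the H3K27ac enhancer lists, because 11 H3K27ac elements in it were unique to RSC. An element is a run of overlapping enhancer regions of a mark, joined across subregions, and it is unique when a single subregion contributed to it. The H3K27ac counts below are therefore a description. H3K4me2 was not part of that count. A region excluded from the enhancer lists was required at the expected promoter before the interval was named after Rgs7. The interval was chosen with earlier results of these data known, so the other values below are a description as well.

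A single excluded element, one present in full lists but left out of the enhancer lists, lay in the interval, at chr1:177414251-177424350, 25.65 kb inside the upper edge. In RefSeq (GRCm38.p6, another build, used here for names, order, strand and length) Rgs7 is on the minus strand, with Fh1 next to it on the upper side and no other gene inside it. Its start is thus expected at the high end of the gene. Rgs7 is 434 kb long there, and 444 kb lie between the lower edge of the interval and the upper end of the excluded element. The place of the excluded element is that expected for the Rgs7 promoter, but the position of the gene start in mm9 was not read, and introns and exons under the regions are not annotated here. The 250 bases before the start in the RefSeq promoter table are shown as the sequence of that promoter (5′ to 3′ on the minus strand, capitals marking the E-box CACGTG). The RefSeq gene model reaches further upstream, so another transcript may start inside or before these bases, and their place within the excluded element is not known:
Rgs7 promoter (GRCm38.p6, minus strand): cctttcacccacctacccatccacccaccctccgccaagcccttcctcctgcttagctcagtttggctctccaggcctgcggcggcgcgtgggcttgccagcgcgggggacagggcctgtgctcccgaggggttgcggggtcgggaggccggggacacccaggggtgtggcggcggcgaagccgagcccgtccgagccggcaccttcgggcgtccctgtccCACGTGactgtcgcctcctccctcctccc

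This window is rich in G and C, at 72.4% against a median of 52.4% over 32851 RefSeq promoters of the same length. It holds 22 CG pairs, where the median was 6, and 14.8% of promoters held as many or more. CACGTG, which reads the same on both strands, occurred once, 29 to 24 bases before the start, and 6.02% of promoters held it. The GC box GGGCGG was searched on both strands and not found in these letters, and 32.7% of promoters held it. The same search found no CCAAT box, CCAAT (in 33.8% of promoters), no TATA box, spelled TATAAA (12.4%), and no cAMP response element, spelled TGACGTCA (1.55%).

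At the excluded element, ACC, LEC and MEC each had a region in both marks and RSC had none in either. The H3K4me2 regions were broad, with 10100 bp in ACC (chr1:177414251-177424350), 9725 bp in LEC (chr1:177414401-177424125) and 6125 bp in MEC (chr1:177417826-177423950). The H3K27ac regions lay inside them, with 2925 bp in ACC (chr1:177420826-177423750), 5100 bp in LEC (chr1:177418651-177423750) and 1725 bp in MEC (chr1:177421801-177423525). In RSC the nearest listed H3K27ac regions were 13.8 kb below the element (chr1:177398901-177400475) and 84.975 kb above it (chr1:177509326-177510850). The nearest RSC H3K4me2 regions were 52.45 kb below (chr1:177360601-177361800) and 85.0 kb above (chr1:177509351-177511050). So the subregion with the most H3K27ac regions inside the interval was the 1 with no listed region at the expected promoter. This is not particular to Rgs7, since a cluster on chromosome 17, described below, also had most H3K27ac regions in RSC and no excluded region of RSC.

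Such a gap was uncommon in these lists when all 3 other subregions were required. Of 8349 sites carried in both marks by ACC, LEC and MEC, 120 (1.44%, Wilson 95% interval 1.20 to 1.72) were in neither RSC list, and the Rgs7 site was among them. With excluded regions alone it was 109 of 5747 (1.90%). With ACC and LEC alone required, and MEC left out because its H3K4me2 list comes from 1 library, the share rose to 1464 of 20092 (7.29%). Where the 3 other subregions were required, the share of sites lost was similar in the other long lists, with 1.69% (1.44 to 1.98) for ACC and 1.34% (1.11 to 1.61) for LEC, and was 19.3% (18.6 to 19.97) for MEC. The Rgs7 site, 10100 bp wide, was wide among the 120, of which 3 were wider and whose median was 4550 bp. Over all 8349 sites the median was 6900 bp, and 30.4% were at least as wide. The intervals cover counting error only, and sites are not replicates of a subregion.

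**Figure D1:**
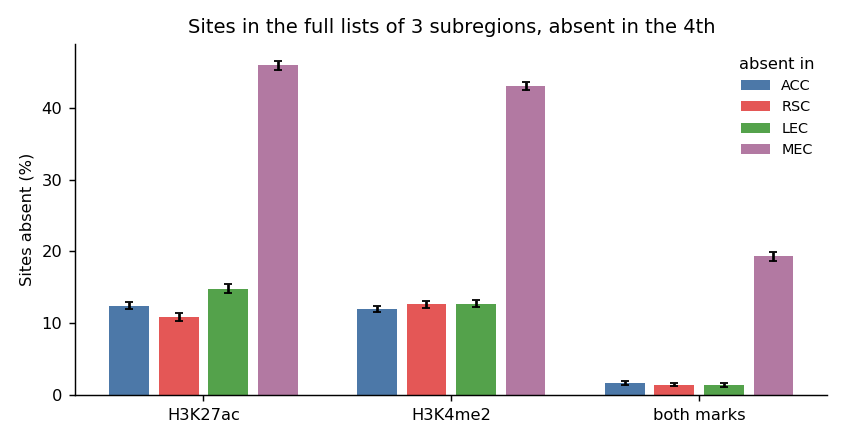
Percentage of sites listed in the full lists of 3 subregions that are absent in the 4th (y axis, %), for H3K27ac, for H3K4me2 and for both marks at once, with Wilson 95% intervals as bars. For both marks, absence in RSC is 1.44% of 8349 sites, and the Rgs7 site is 1 of those 120.

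The nearest excluded elements above the interval were listed in RSC for H3K4me2 but not for H3K27ac. The first one above, chr1:177552626-177556800, was in 7 of 8 lists and the next, chr1:177617926-177624450, in 6. RSC H3K4me2 had both of these and RSC H3K27ac had neither. Within 1 Mb of the interval, RSC lacked 2 of the 7 H3K27ac sites and 3 of the 10 H3K4me2 sites carried by ACC, LEC and MEC. Over the genome RSC lacked 10.9% of 13605 H3K27ac and 12.6% of 17820 H3K4me2 sites. Of the H3K4me2 sites absent in RSC, 2 lay in the interval, and they were the only H3K4me2 sites that the other 3 shared there.

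H3K27ac enhancer regions were densest in RSC. RSC had 24 regions covering 69.2 kb or 14.7% of the interval, ACC 16 covering 42.2 kb (8.98%), LEC 10 covering 30.2 kb (6.42%) and MEC 4 covering 8.15 kb (1.73%). ACC has the longest of the H3K27ac enhancer lists, with 27909 regions against 24272 in RSC, 22973 in LEC and 10951 in MEC. Set against 4961 successive windows of 470 kb, the mean window held 4.92 RSC, 5.66 ACC, 4.65 LEC and 2.22 MEC regions. All 4 subregions were thus above their own mean here, and RSC by most. RSC covered 1.64 times the bases of ACC.

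H3K4me2 enhancer regions did not follow that order. ACC had 9 regions (11.8 kb), LEC 8 (11.2 kb), RSC 7 (7.975 kb) and MEC 5 (4.475 kb), where the mean windows held 6.92, 5.89, 5.80 and 3.03. The ratio of RSC to ACC bases was 0.674, and 0.364 in the full lists, which include the excluded element. A count of at least 7 RSC H3K4me2 regions occurred in 36.6% of windows. At least 24 RSC H3K27ac regions occurred in 0.726%, a rarity partly built in because the interval was selected on the H3K27ac lists.

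**Figure D2:**
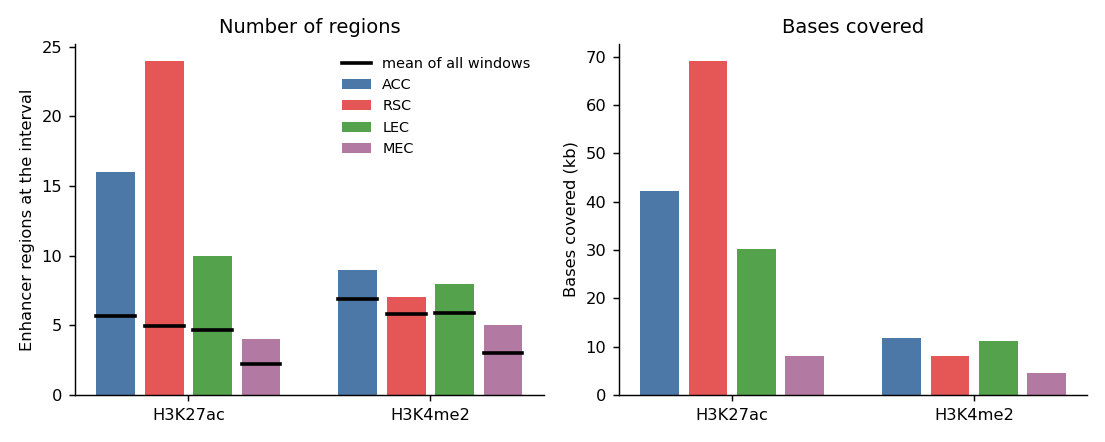
Enhancer regions (left, count) and bases covered (right, kb) at the interval by mark and subregion, with the mean number of regions over 4961 windows of 470 kb as black lines. RSC leads in H3K27ac with 24 regions and 69.2 kb, and lies below ACC and LEC in H3K4me2 with 7 regions and 7.975 kb.

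The widest H3K27ac enhancer regions were 9925 bp in LEC (chr1:177366951-177376875), 6875 bp in RSC (chr1:177357251-177364125, with chr1:177368601-177375475 of equal width), 6675 bp in ACC (chr1:177236001-177242675) and 2625 bp in MEC (chr1:177317951-177320575). The widest H3K4me2 regions were narrower, with 2425 bp in LEC (chr1:177371126-177373550), 2000 bp in MEC (chr1:177184876-177186875), 1875 bp in ACC (chr1:177371601-177373475) and 1400 bp in RSC (chr1:177350451-177351850). The narrowest RSC H3K27ac region was 825 bp wide.

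Merging gave 27 H3K27ac elements at the interval, of which RSC contributed to 24. RSC alone carried 11, and ACC and MEC alone carried 1 each, at chr1:177152576-177153450 and chr1:177139151-177140775. LEC had none of its own. Over the genome 21.3% of RSC elements were unique to RSC, against 11 of 24 here, a share the choice of the interval built in. The shares over the genome were 23.6% in ACC, with 1 of 14 here, 21.3% in MEC, with 1 of 4, and 21.1% in LEC, with 0 of 9. Among shared elements, 6 were carried by ACC, RSC and LEC (22.2% of the 27, against 14.0% of 42115 elements over the genome) and 4 by ACC and RSC (14.8% against 9.98%). No element here was carried by ACC and LEC alone, a class with 10.2% of elements over the genome, and none by ACC, LEC and MEC without RSC (1.31%).

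The elements carried by all 4 subregions were chr1:177236001-177242675, 180 kb below the centre of the excluded element, and chr1:177366951-177376875, 47.4 kb below it. At the first, ACC covered 6675 bp, RSC 4825 bp, LEC 3500 bp and MEC 1925 bp. At the second, LEC covered 9925 bp, RSC 6875 bp, ACC 5250 bp and MEC 1975 bp. RSC and MEC had no H3K4me2 at either, whereas ACC had it at both and LEC at the second.

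**Figure D3:**
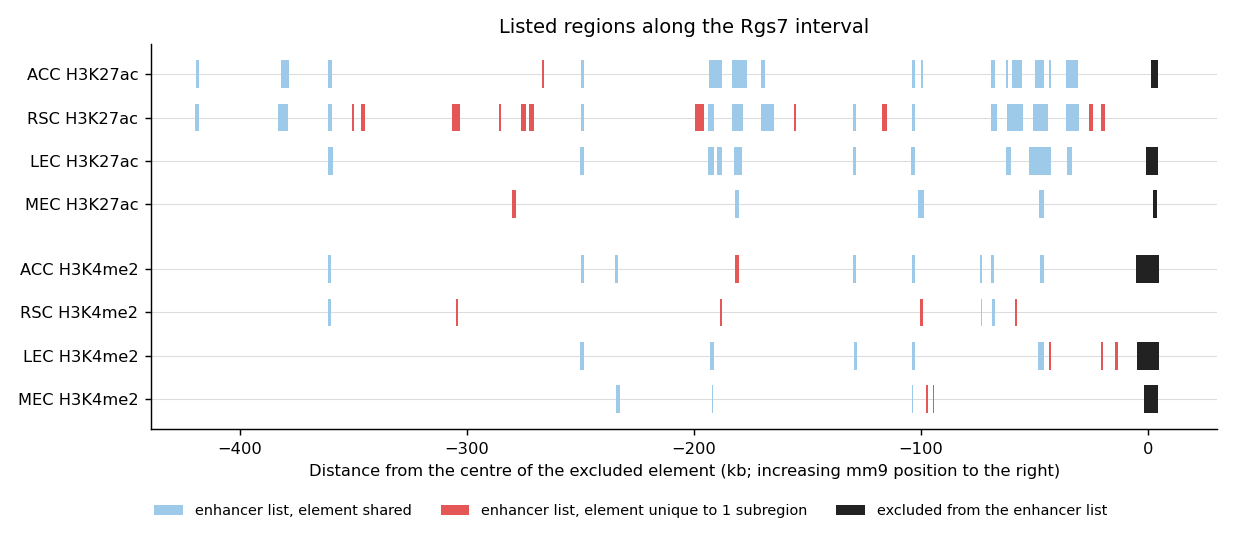
Listed regions along the interval for 2 marks and 4 subregions (rows), by distance in kb from the centre of the excluded element at the expected promoter (x axis), coloured by whether the element is shared, unique to 1 subregion, or excluded from the enhancer lists. The RSC H3K27ac row holds 24 regions, 11 of them unique, and both RSC rows are empty at 0 kb, where the other 6 rows have a region.

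The RSC-unique H3K27ac elements were spread from 350 kb to 19.6 kb below the centre of the excluded element. The farthest were chr1:177068551-177069700 (1150 bp) and chr1:177072451-177074500 (2050 bp). They stood 8.175 kb and 12.1 kb from the nearest H3K27ac region of another subregion, a LEC region. No H3K4me2 region of any subregion overlapped them.

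Next came 4 elements between chr1:177097501 and 177215000, where RSC had 5 H3K27ac regions, ACC 2, LEC 1 and MEC 1. At chr1:177112851-177116350 (3500 bp) the nearest H3K27ac region elsewhere was 22.8 kb away, the largest gap among the 11. This was also the 1 RSC-unique element with RSC H3K4me2, a 1200 bp region at chr1:177114301-177115500 that no other subregion shared. It was the only element at the interval that was unique in H3K27ac and carried H3K4me2 of its own subregion alone. The others there were chr1:177133276-177134275 (1000 bp), chr1:177143051-177145450 (2400 bp) and chr1:177146776-177148850 (2075 bp), which flank the MEC-unique element and had gaps of 4.875 kb, 2.275 kb and 3.725 kb.

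Higher up lay chr1:177219851-177223600 (3750 bp), the widest of the 11, which had the smallest gap, 1.825 kb to a LEC region. It was followed by chr1:177263376-177264200 (825 bp), the narrowest, and by chr1:177302201-177304300 (2100 bp). Their gaps to the nearest region elsewhere were 12.85 kb and 10.475 kb. No H3K4me2 region overlapped any of these 3.

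The nearest to the expected promoter were chr1:177393451-177395325 (1875 bp) and chr1:177398901-177400475 (1575 bp), 24.9 kb and 19.6 kb below the centre of the excluded element. The second overlapped an H3K4me2 region of LEC, chr1:177398851-177399750, and none of RSC. These are the regions closest to the excluded element that RSC had in H3K27ac, in a stretch where ACC, LEC and MEC listed no H3K27ac.

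All 11 were absent from the full H3K27ac lists of the other subregions, where over the genome this held for 80.3% of RSC-unique elements. Of the 11, 10 were also free of any full-list H3K4me2 region of another subregion, against 58.9% over the genome. Their median width was 2050 bp, against 1325 bp for all RSC-unique elements, and together they covered 22.3 kb. The 13 shared elements held the larger part of the RSC bases, 46.9 kb, with a median of 2900 bp.

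H3K4me2 was scarce at the RSC H3K27ac regions. RSC H3K4me2 overlapped 1 of the 11 unique elements (9.09%, Wilson 95% interval 1.62 to 37.7), with 27.7% over the genome, an interval that includes the genome value. It overlapped 4 of the 13 shared elements, with 61.9% over the genome. Overlap with a shared element can fall on the part of another subregion. At chr1:177225376-177231725 RSC H3K4me2 overlapped the ACC and LEC regions and not the RSC region. Counted by regions, 4 of 24 RSC H3K27ac regions (16.7%, 6.68 to 35.9) carried RSC H3K4me2, against 53.7% of the whole RSC list. ACC had 6 of 16 (37.5%, 18.5 to 61.4) against 61.0%, LEC 5 of 10 (50.0%, 23.7 to 76.3) against 60.5%, and MEC 0 of 4 (upper bound 49.0%) against 34.3%. All 4 were below their own list. For RSC this was partly built in by the choice of the interval, which favoured RSC-unique elements. Over the genome those carried RSC H3K4me2 in 27.7% of cases and shared elements in 61.9%. In the full lists ACC had 7 of 17 (41.2%, 21.6 to 63.99) against 69.1% and RSC 4 of 24 (16.7%, 6.68 to 35.9) against 64.5%. LEC had 6 of 11 (54.5%, 28.01 to 78.7) against 70.3%, and MEC 1 of 5 (Wilson 95% interval 3.62 to 62.4) against 62.2%. The list's share lay outside the ACC and RSC ranges and inside those of LEC and MEC. Neighbouring regions are not independent and the locus was selected on H3K27ac, so these ranges are not a test. Whether RSC differed from the other subregions in this overlap was not tested. Of the 11 unique elements, 9 had no H3K4me2 enhancer region in any subregion, against 61.2% over the genome.

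The H3K4me2 regions themselves were covered by H3K27ac of their subregion in 4 of 7 cases in RSC, against 48.4% of the RSC list. ACC had 6 of 9 against 53.1%, LEC 6 of 8 against 50.4% and MEC 0 of 5 against 26.2%. H3K4me2 without H3K27ac in any enhancer list was found at 5 of 19 elements, against 41.4% over the genome. These were chr1:177184701-177186875 (ACC and MEC), chr1:177321551-177322325 and chr1:177324451-177325000 (MEC), chr1:177345451-177346475 (ACC and RSC) and chr1:177405026-177406050 (LEC). The last lay 13.8 kb below the centre of the excluded element and was the closest enhancer region of either mark to it.

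**Figure D4:**
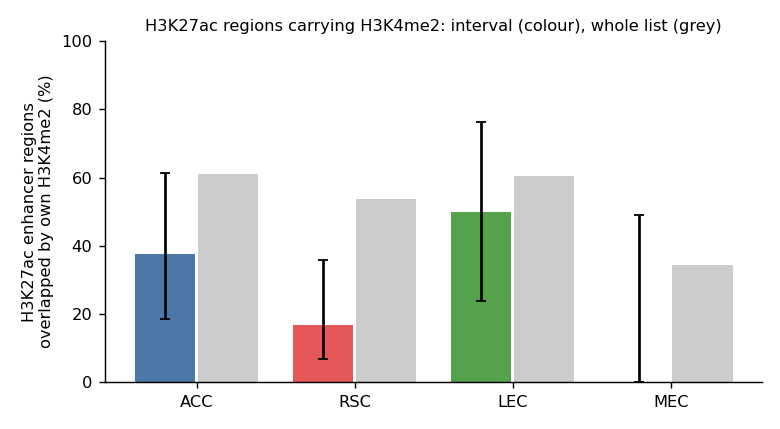
Percentage of H3K27ac enhancer regions overlapped by H3K4me2 enhancer regions of the same subregion (y axis, %), at the interval (colour, Wilson 95% intervals as bars) and over the whole list (grey). RSC stands at 16.7% of 24 regions against 53.7% of its list.

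The RSC H3K4me2 regions lay mostly where the other subregions had none. Of the 7 RSC elements 4 were unique, where 16.5% of RSC H3K4me2 elements were unique over the genome. LEC had 3 unique of 8 (16.6% over the genome), MEC 2 of 5 (33.6%) and ACC 1 of 9 (21.0%). No H3K4me2 element was common to all 4 subregions, where 9.91% were over the genome. RSC shared no H3K4me2 base with LEC and none with MEC at the interval, although RSC and LEC shared 39.7% of their bases over the genome and RSC and MEC 13.6%. With ACC it shared 18.4%, against 43.2% over the genome. In H3K27ac RSC and ACC shared 41.8% of their bases here and 42.6% over the genome, RSC and LEC 28.4% and 35.0%, and RSC and MEC 5.31% and 23.5%. The H3K27ac pairs of RSC with ACC and LEC were thus nearer to their genome shares than its pair with MEC. Most pairs without RSC also shared less here than over the genome. In H3K4me2 ACC and LEC shared 29.4% against 44.7%, and LEC and MEC 7.93% against 12.3%. ACC and MEC went the other way, with 11.8% against 10.3%. In H3K27ac ACC and LEC shared 39.7% against 41.2%. MEC shared 10.8% against 18.0% with ACC and 11.3% against 19.3% with LEC.

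The unique RSC H3K4me2 elements were chr1:177114301-177115500, chr1:177230676-177231675, chr1:177319101-177320350 and chr1:177360601-177361800. H3K27ac of RSC covered the first and the last. At chr1:177230676-177231675 it was ACC and LEC that had H3K27ac, and at chr1:177319101-177320350 ACC and MEC, while RSC had none. The reverse held at chr1:177315276-177316700, where ACC, LEC and MEC had H3K4me2 and RSC had only H3K27ac, in a 1150 bp region shared with ACC and LEC. The 2 marks of RSC were thus split between neighbouring positions at this place, 103 and 99.6 kb below the centre of the excluded element.

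Both marks of RSC and ACC came together at chr1:177350201-177352925, where the H3K4me2 element chr1:177350326-177351850 was carried by these subregions alone. They also came together at chr1:177058101-177060375, where LEC had H3K27ac as well. MEC had neither mark at these places.

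Windows of 470 kb place the interval among the extremes of RSC-unique H3K27ac elements, which is how it was found. It held 11, the mean window held 1.002, and 3 of 4961 windows (0.0605%) held as many or more. For H3K4me2 its 4 RSC-unique elements were matched or passed in 4.25% of windows. RSC had 8 more H3K27ac regions than ACC here, a lead reached in 26 windows (0.524%), and 2 fewer H3K4me2 regions. The mean difference per window, RSC minus ACC, was -0.739 regions in H3K27ac and -1.12 in H3K4me2. In H3K4me2 a difference of -2 or higher occurred in 77.3% of windows, so the lower count was not unusual.

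**Figure D5:**
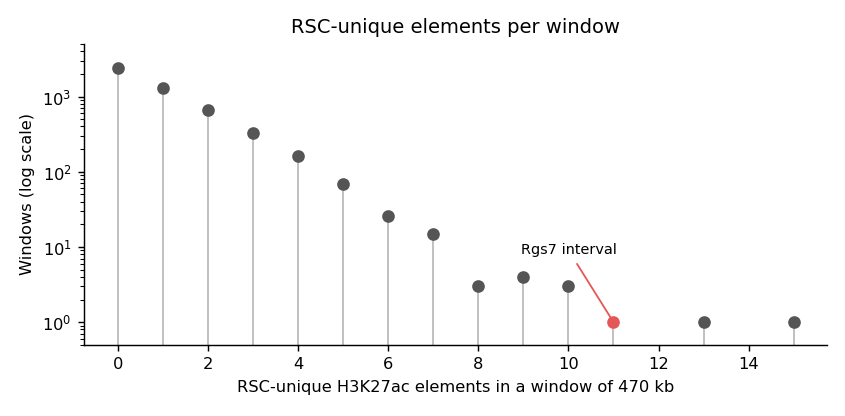
Number of 470 kb windows (y axis, log scale) by the number of RSC-unique H3K27ac elements they hold (x axis), over 4961 windows with any region of either mark. The Rgs7 interval (red) holds 11, and the windows beyond it hold 13 and 15.

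Chaining RSC-unique elements at gaps of up to 100 kb put 2 other clusters ahead of this one, at chr2:169431926-169689125 with 16 unique elements and at chr17:62948051-63168925 with 12. Here the chain ran over chr1:177068551-177400475. ACC was better represented at Rgs7, with 3.92 H3K27ac regions per 100 kb against 6.33 in RSC, where the chromosome 2 cluster had 2.33 against 9.72 and the chromosome 17 cluster 0.905 against 6.34. RSC H3K4me2 was found at 1 of 11 unique elements here, at 3 of 16 on chromosome 2 and at 7 of 12 on chromosome 17. H3K4me2 of any subregion was found at 2 of 11, 6 of 16 and 8 of 12. On chromosome 17 RSC had no excluded region in either mark. ACC had 1 there in each mark, and LEC and MEC had 1 each in H3K4me2 and none in H3K27ac. On chromosome 2 RSC had 2 excluded regions in each mark. The chain at Rgs7 ended below the excluded element and held none of any subregion. These differences between the 3 clusters were not tested.

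The edges of the interval fell in stretches with few regions. Below it, the last H3K27ac element outside was chr1:176958376-176959425 (ACC, 20.6 kb from the edge) and the first inside was chr1:176999476-177001275 (ACC and RSC, 19.475 kb from it). Above it, the last inside was the RSC-unique chr1:177398901-177400475 and the first outside was chr1:177479476-177481600 (LEC, 29.475 kb from the edge). For H3K4me2 the elements just outside were chr1:176958301-176959325 (LEC) and chr1:177480176-177481150 (ACC).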

How the data were processed

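H3K27ac and H3K4me2 were measured by chromatin immunoprecipitation and sequencing in 4 cortical subregions. Per the labels, 23 samples were described, among them 2 input libraries per subregion, and tissue was dissected from sections of 500 µm. Per the submitters' processing notes, tools included Bowtie 1.1.1 and bedtools 2.19.0, with build mm9. The peak caller, its threshold, the joining of replicates and the enhancer rule were not given in the sources used here. Of 17 deposited lists 16 were used, since 1 was a copy. Positions lay on a grid of 25 bp. The deposited score equals the width of each region in bp, so it gives no enrichment (the MEC H3K27ac lists have none), and sequencing depth is unknown.

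Counts, bases and overlaps (at least 1 bp) were computed in Python 3.11.15 (scipy 1.17.1 for intervals), and figures drawn with matplotlib 3.10.9. Merging was tested on simulated lists (8000 of 8000 elements recovered). Coordinates are 1-based. The interval, the lists and the rule for named regions (RSC-unique and doubly marked elements, excluded regions, widest regions, edges) were chosen with earlier results of these data known. Shared elements and H3K4me2 elements named beyond that rule were chosen after their values were seen. No gene table of mm9 was used, so loci of RGS7 partners were not analysed here. The alternatives were a stricter overlap, full lists, regions of at least 1000 bp, no merging, lists of equal length and an interval wider by 50 kb at each end.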

Additional observations from a re-analysis of the deposited data

How the results depend on the processing

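Of 40 values under the alternative settings, 31 stayed within 1.5 times the value reported and 9 did not. With every list cut to its widest regions, as many as the shortest list of the mark holds, RSC had 11 H3K27ac regions and 5 unique elements. RSC then had 0 H3K4me2 regions and 0 unique H3K4me2 elements, so the RSC to ACC ratio for H3K4me2 was 0, and 0 RSC-unique H3K27ac elements carried H3K4me2 of RSC or of another subregion. In the full lists the H3K4me2 ratio was 0.364. Without regions under 1000 bp, 0 RSC-unique H3K27ac elements carried H3K4me2 of another subregion. The RSC to ACC ratio for H3K27ac stayed between 1.53 and 1.69. Of the alternatives chosen after seeing the data, requiring only ACC and LEC raised the sites absent in RSC to 1464, from 120. The unknown depth limits what an absent region shows: a site under the peak threshold cannot be told from one without the mark. No paired analysis was possible because the lists join the libraries and carry no replicate numbers, and for the same reason no library could be left out.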
